A study of Mus musculus with 21 samples.

Results

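The Atoh1 locus was taken as the Atoh1 gene body and 100 kb on each side, chr6:64629125-64831245 of mm10, with the gene itself at chr6:64729125-64731245 (2121 bp, plus strand; RefSeq annotation). Its members were the peak summits that lay in this window among the 100000 highest-scoring summits of each library, hereafter kept summits. There were 728 of them among 2100000 kept summits in all, and they merged into 88 sites of 500 bp out of 356087 sites genome-wide. A site is named by the distance of its centre from the Atoh1 start, so that the +5.5 kb site lies downstream of the gene.

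Omni-ATAC, a transposase assay of open chromatin, had been run on 21 mouse libraries in 7 groups of 3. The primary groups were granule neuron progenitors (GNP) at postnatal day 7, hyperplasia at postnatal day 28 and medulloblastoma tumors whose age is not stated. GNP and hyperplasia cells came from Atoh1EGFP cerebella over a percoll gradient, and tumor cells from tumor-bearing cerebella treated with Trypsin/DNase and strained. All 3 were then sorted for EGFP, so they were selected on an Atoh1 reporter. GNP titles carry the prefix Ptch1 and hyperplasia titles read PNC. The sources used here give neither the genotype of each primary group nor the way EGFP was joined to Atoh1, and stage cannot be told apart from age or, for tumor, from the way the cells were isolated. The other 4 groups were VDR, labelled a mouse medulloblastoma cell line: cells given siNfia, siNfib or the control siNC, and untreated cells. The labels say siRNA but the list names begin with sh, and replicates are not stated to be separate animals or cultures, so p-values measure only the spread between these libraries, which may be technical. Summit lists hold no mRNA level of Nfia or Nfib, so the knockdown was not checked here.

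ATOH1 is a basic helix-loop-helix transcription factor that keeps cerebellar granule neuron progenitors dividing under Sonic hedgehog, and it is needed for hedgehog-driven medulloblastoma in mice. It binds E-boxes as a dimer with E proteins, and it maintains its own transcription through an enhancer that lies downstream of the single coding exon. NFI proteins, the products of Nfia, Nfib and related genes, bind a palindrome of TTGGC half-sites and act in granule neuron differentiation. Upstream, the window holds a lncRNA gene, Gm35851, that ends just before the Atoh1 start. Downstream it holds no other annotated protein-coding gene.

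The bases before the Atoh1 start are shown because every library had a kept summit there. They come from the RefSeq promoter table (GRCm38.p6, chr6:64728875-64729124, plus strand, 250 bases), and capitals mark the NFI half-site TTGGC.
Atoh1 promoter: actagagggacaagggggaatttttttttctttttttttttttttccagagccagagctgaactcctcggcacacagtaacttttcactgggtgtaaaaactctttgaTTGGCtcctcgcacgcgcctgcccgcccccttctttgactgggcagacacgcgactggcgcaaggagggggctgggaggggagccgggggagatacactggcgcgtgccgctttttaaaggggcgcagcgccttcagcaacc
The half-site covers bases -142 to -138 before the start and overlaps a reversed CCAAT box, ATTGG, at -143 to -139. On either strand TTGGC occurs in 41.5% of 32851 mouse promoters of this length. The sequence had no E-box (CANNTG, in 66.2% of promoters), no full NFI palindrome (TTGGC and GCCAA 5 bases apart, in 0.0365%) and no GLI site (GACCACCCA on either strand, in 0.225%). The strongest promoter summit lay between -220 and -107 across the 21 libraries, with a median of -127. A match of letters is no measure of binding.

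Read depth is unknown, because the lists hold no counts, and the lists differed in strength. The score at rank 100000, a -log10 p or q value, ranged from 15.3 to 28.9 in GNP, 9.26 to 12.6 in hyperplasia, 10.02 to 21.3 in tumor, 3.76 to 3.97 in untreated VDR, 4.95 to 9.61 with siNC, 5.03 to 7.23 with siNfia and 8.25 to 17.4 with siNfib. Between 39690 and 54578 summits were tied at that score in untreated VDR libraries, so their kept sets were partly arbitrary. Chromosome 6 held 5.08% to 5.11% of kept summits in GNP and 5.15% to 5.26% in hyperplasia, with 6.12% to 7.12% in tumor and 7.27% to 11.3% in the 12 VDR libraries. Counts at Atoh1 were therefore also read against the 10 nearest protein-coding genes on each side. The 7 granule progenitor markers were Atoh1, Zic1, Zic2, Pax6, Barhl1, Gli1 and Neurod1, the last also read below as a next-stage gene. All 7 had a kept summit in every group. Their summed counts were 86 to 95 in GNP, 65 to 86 in hyperplasia and 72 to 83 in tumor. Every tumor library thus lay below every GNP library, and the part of Neurod1 in this was not tested. The sums were 48 to 69 in the siRNA-treated libraries and 21 to 33 in untreated VDR. They did not use the 100 kb window, in which Atoh1 alone had 22 to 25 kept summits in untreated VDR. Over the primary libraries, markers of other cells summed to 3 to 9 for microglia (Cx3cr1 and Aif1 at 0 in all 3 groups), 1 to 3 for fibroblasts (Dcn and Lum at 0), 15 to 24 for astrocytes (S100b at 0), 30 to 41 for oligodendrocytes (Sox10 and Mog at 0), 14 to 20 for endothelial and mural cells and 5 to 13 for Purkinje cells and interneurons (Pcp2 at 0). Tumor was above GNP for microglia (7 to 9, against 3 to 4) and oligodendrocytes (40 to 41, against 33 to 35) and below it for Purkinje cells and interneurons (5 to 7, against 9 to 12). Hyperplasia was also above GNP for microglia (5 to 8, against 3 to 4), and the part of these in the results was not tested.

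Tumor replicate 2 stood apart inside the gene itself. Its 3 highest summits genome-wide lay in the Atoh1 body, 361, 588 and 910 bp from the start, with scores of 10521, 11973 and 10791. In the other 20 libraries the best summit in the Atoh1 body scored between 9.06 and 151 and ranked between 6461 and 35523. At the promoter and the +5.5 kb site it ranked 618 and 382, where the other tumor libraries ranked 466 and 589, and 50 and 342. The next 10 summits of that library, ranks 4 to 13, lay in Smo, another chromosome 6 gene, so tumor results that change without this library are given both ways. All 11 sites called between tumor and hyperplasia below passed without it.

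The number of kept summits in the window was highest in the siRNA-treated cell line and lowest in untreated VDR and the early stages. The siNfib libraries had 45, 52 and 45 kept summits, the siNC libraries 46, 44 and 45, and the siNfia libraries 36, 41 and 53. Tumor libraries had 36, 32 and 30, hyperplasia libraries 24, 26 and 27, GNP libraries 23, 27 and 26, and untreated VDR libraries 22, 23 and 25. In this order siNfib, siNC and siNfia overlapped, siNfia and tumor shared a value of 36, and hyperplasia, GNP and untreated VDR overlapped with one another, while tumor lay above all of hyperplasia.

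**Figure D1:**
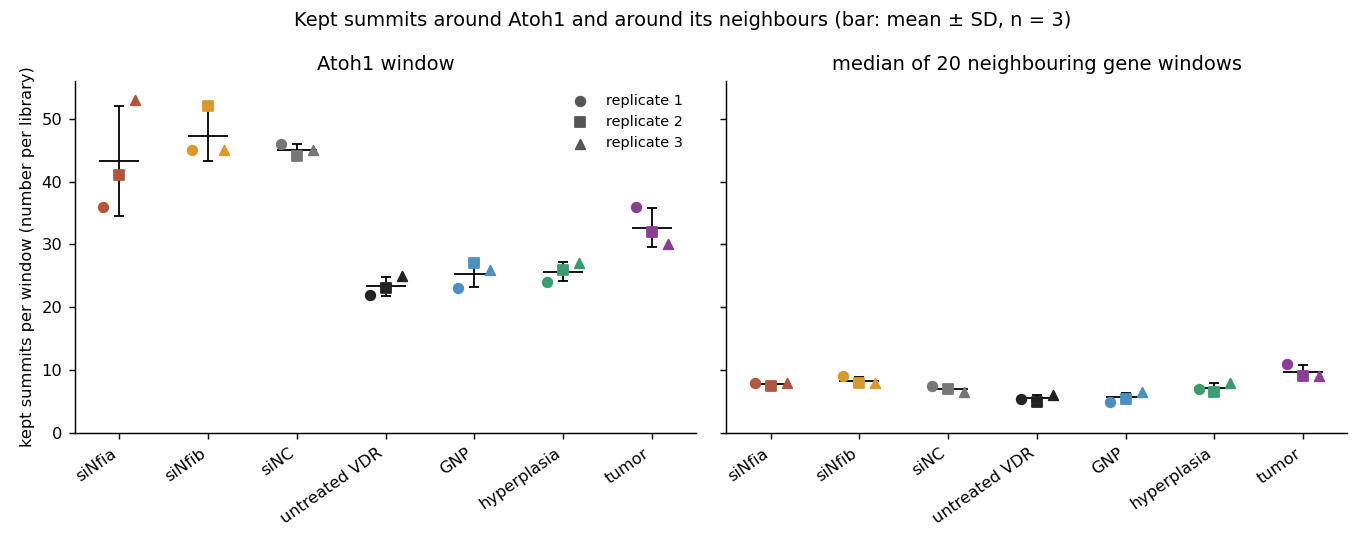
Number of kept summits per library in the Atoh1 window (left) and the median over the windows of 20 neighbouring genes (right), by group; points are libraries, the line and bar the mean and SD of 3. Atoh1 holds more summits than its neighbours in every library, and tumor is the highest primary group in both panels.

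Against the neighbouring genes, the stage difference in the count did not stand. On the log2(count + 1) scale tumor was 0.35 above GNP (32.7 ± 3.06 kept summits against 25.3 ± 2.08, SD, n = 3 each; SE 0.09, limma adjusted p = 0.0248), a call made for 12.5% of 17934 gene windows. The neighbouring median moved the same way, 9.65 ± 1.13 in tumor and 5.66 ± 0.757 in GNP. With that median subtracted, tumor was lower than GNP by a log2 difference of -0.33 (SE 0.09, adjusted p = 0.0829), which did not pass, where 5% of windows did. Tumor against hyperplasia gave 0.33 (adjusted p = 0.0623; -0.05 and 0.843 against neighbours), and hyperplasia against GNP gave 0.02 (adjusted p = 0.917; -0.28 and 0.127 against neighbours). As counted, with no neighbours subtracted, tumor did not pass against GNP when any of GNP replicate 1, 2 or 3 was left out (adjusted p = 0.109, 0.0508 and 0.0611), nor without tumor replicate 1 or 2 (0.0911 and 0.0563), with the difference between 0.28 and 0.41 over all 6 left-out libraries. Of the neighbours, Smarcad1, the next gene downstream and a chromatin remodeller, had 14.3 ± 4.04 kept summits in tumor, 11.7 ± 2.52 in hyperplasia and 5 ± 0 in GNP.

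The difference between siNC cells and tumor was larger against the neighbours than without them. The siNC libraries averaged 45 ± 1 kept summits at Atoh1, which was 0.45 above tumor on the log2 scale (SE 0.11, adjusted p = 0.00161; 44.1% of 17748 windows were called), and 0.87 (SE 0.13, adjusted p = 0.000192; 24.3%) with the neighbouring median subtracted. The siNC count was also 0.92 above untreated VDR (SE 0.11, adjusted p = 9.44e-08; 64.2%), and 0.62 against neighbours (adjusted p = 0.00237; 25.4%). Untreated VDR lay below tumor by -0.47 (adjusted p = 0.000649; 68.6% called), which turned to 0.25 (adjusted p = 0.157) against neighbours. The siNfia and siNfib counts did not pass against siNC, with log2 differences of -0.07 (SE 0.11, adjusted p = 0.839; 0.138% of 17430 windows called) and 0.07 (SE 0.11, adjusted p = 0.815; 2.39%).

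Site by site, the places occupied in every library lay within a few kb of the gene, just upstream and just downstream. Of the 88 sites, 9 lay in Gm35851, 1 in the gap that ends at the Atoh1 start, 5 in Atoh1 and 37 downstream. In all, 56 sites were occupied in at least 3 libraries and 24 in 1 library. The 5 sites occupied in all 21 libraries were at -1.2 and -0.4 kb in Gm35851, at -0.1 kb over the promoter sequence above, and at +4.5 and +5.5 kb. They made up 5.68% of the window's sites, where 4.34% of all sites in the genome were occupied in every library.

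**Figure D2:**
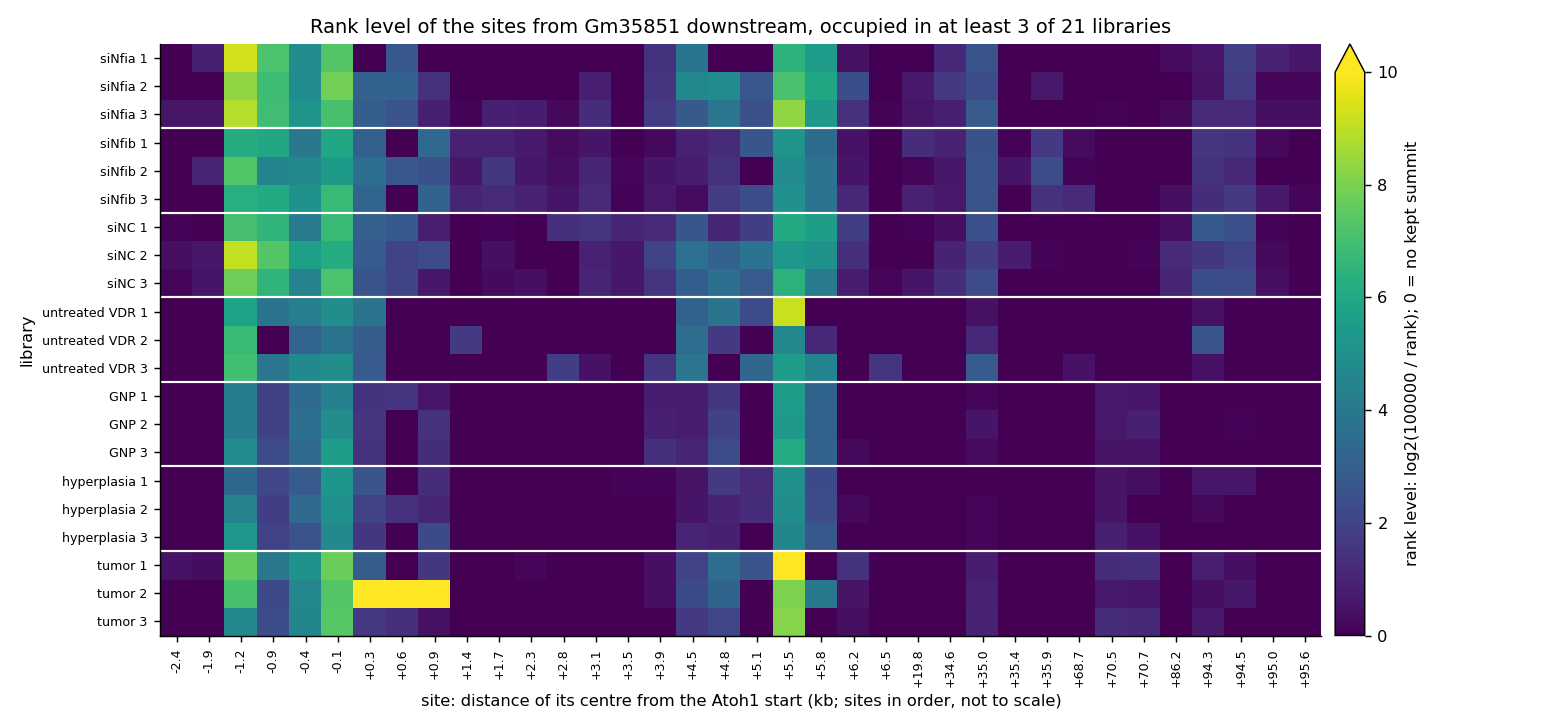
Rank level, log2(100000 / rank), of the 36 sites from Gm35851 to the downstream end of the window that were occupied in at least 3 libraries; columns are sites ordered by distance from the Atoh1 start in kb, rows are libraries, and 0 means no kept summit. The columns at -1.2, -0.1 and +5.5 kb stand out in every group, and the 3 gene-body sites reach past the scale in tumor replicate 2.

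Ranks rather than scores were compared at each site, as a rank level of log2(100000 / rank), where rank 1 is the strongest summit of a library and 0 stands for no kept summit. A level higher by 1 means a rank number smaller by a factor of 2. Levels at 0 are cut off rather than measured, and sites of one group of peaks are not independent of each other. In bulk cells, fewer cells with an open site and a less open site in each cell cannot be told apart.

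The promoter site at -0.1 kb (chr6:64728743-64729242) was higher in tumor than at both earlier stages. It ranked 4772, 3338 and 2037 in GNP, 2653, 3062 and 3670 in hyperplasia, and 466, 618 and 589 in tumor. All 3 tumor libraries lay above all 6 others, while hyperplasia lay inside the range of GNP. The rank level in tumor was 7.497 ± 0.22, against 5.01 ± 0.23 in hyperplasia, a difference of 2.49 (SE 0.37, limma adjusted p = 0.00267; 2.56 without tumor replicate 2 and 1.95, adjusted p = 0.00821, against neighbouring sites). Against GNP (4.97 ± 0.62) the difference was 2.53 (SE 0.37, adjusted p = 0.000806).

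The strongest downstream site, at +5.5 kb (chr6:64734326-64734825), had the largest difference in rank level among called stage differences of the locus. It ranked 2108, 2444 and 1406 in GNP, 3081, 3340 and 4202 in hyperplasia, and 50, 382 and 342 in tumor. Tumor lay above both earlier stages in every library, and hyperplasia lay below every GNP library. The level in tumor was 9.06 ± 1.65 against 4.83 ± 0.23 in hyperplasia, a difference of 4.23 (SE 0.66, adjusted p = 0.00337), and 4.75 without tumor replicate 2. Against GNP (5.69 ± 0.41) it was 3.37 (SE 0.66, adjusted p = 0.00415; 2.85 and 0.0083 against neighbouring sites). Hyperplasia against GNP, at -0.86 (SE 0.66), did not pass (adjusted p = 0.418). This site lies on the side of the gene that holds the known autoregulatory enhancer, but no enhancer coordinates were in the annotation used. At the neighbouring +5.8 kb site, ranks were 10669, 11483 and 11164 in GNP and 20914, 19592 and 14982 in hyperplasia. Tumor replicate 2 ranked 6056 there and tumor replicates 1 and 3 listed no separate summit. Tumor did not pass at +5.8 kb with all libraries (-1.10, adjusted p = 0.444, against hyperplasia, and -1.82, 0.145, against GNP). Without tumor replicate 2 its level there was lower than that of hyperplasia (-2.45, 0.00292) and GNP (-3.17, 0.000251). That level is 0 in both remaining tumor libraries because no summit was listed apart from their strong +5.5 kb summit. The calls therefore do not measure a loss of openness at +5.8 kb.

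**Figure D3:**
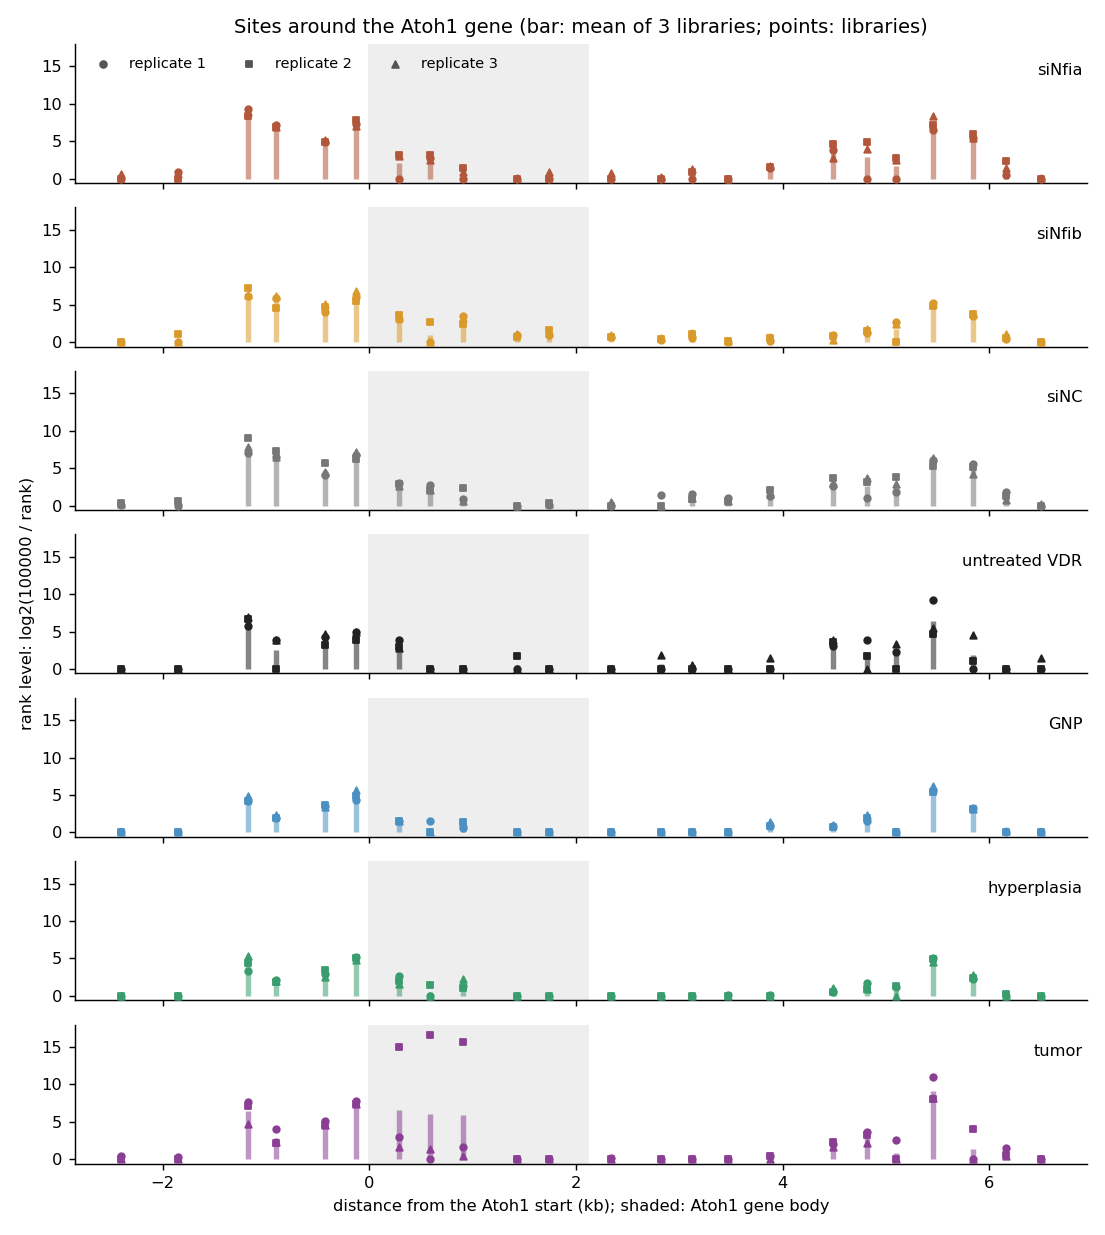
Rank level by distance from the Atoh1 start (kb) for sites between -2.4 and +6.5 kb, 1 panel per group; bars are means of 3 libraries, points are libraries, and the gene body is shaded. Tumor is the highest primary group at -0.1 and +5.5 kb, and the 3 highest points in the tumor gene body are tumor replicate 2 alone.

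Among other sites near the gene, 3 were higher in tumor than in hyperplasia and 1 was highest in GNP among the primary groups. The -0.4 kb site in Gm35851 ranked 2860, 4070 and 4116 in tumor and 13784, 9304 and 17095 in hyperplasia (difference 1.84, SE 0.29, adjusted p = 0.00348). The +4.5 and +4.8 kb sites were also higher in tumor than in hyperplasia, by 1.25 (adjusted p = 0.0123; 0.73 and 0.0683 against neighbouring sites) and 1.81 (adjusted p = 0.0128). Neither passed when all 21 libraries entered the fit (adjusted p = 0.0698 at +4.5 kb and 0.431 at +4.8 kb). The +3.9 kb site ranked 57540, 55032 and 38168 in GNP, was kept in 1 hyperplasia library at 92729 and in 2 tumor libraries at 75508 and 75991. It was lower in hyperplasia than in GNP by -0.98 (SE 0.21, adjusted p = 0.00598) and lower in tumor than in GNP by -0.75 (adjusted p = 0.026), a call lost without GNP replicate 3 or tumor replicate 3 (adjusted p = 0.0766 and 0.0994) and with sites occupied in at least 1 library tested (0.056). With all 21 libraries in the fit neither call held (0.0622 for hyperplasia and 0.194 for tumor).

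Within the Atoh1 body, the high tumor values came from tumor replicate 2. At +0.6 kb the tumor level was 6.001 ± 9.21 against 0.48 ± 0.83 in hyperplasia, a difference of 5.52 (SE 3.10, adjusted p = 0.302) that became 0.22 (adjusted p = 0.893) without that library. At +0.3 kb the same difference was 4.45 with it and 0.21 without, and at +0.9 kb 4.36 with it and -0.50 without. None of the 3 sites passed in either case.

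**Figure D4:**
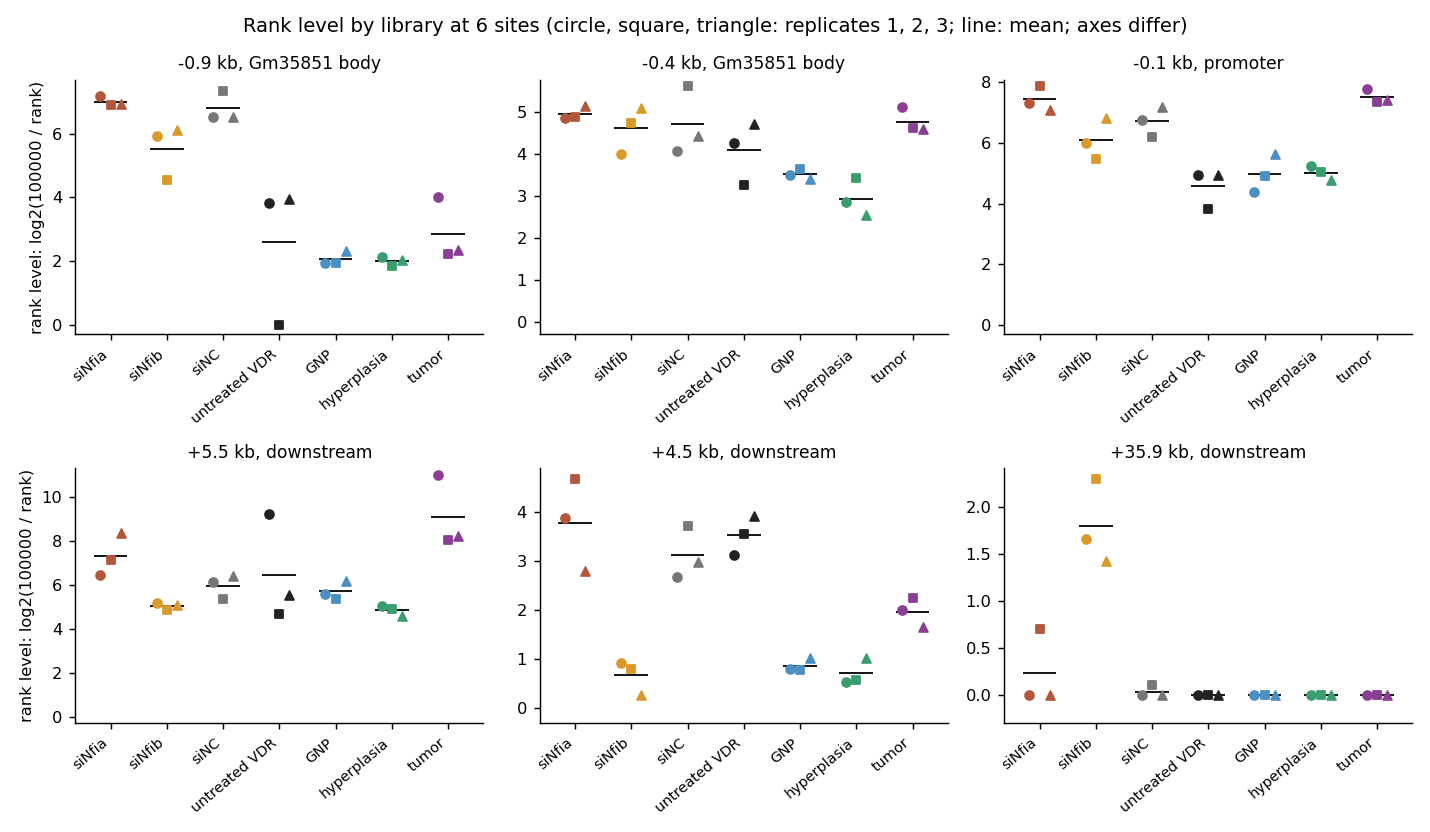
Rank level of 6 sites by library; groups run along the horizontal axis, points are the 3 libraries, lines are means, and vertical scales differ. Tumor is highest of the primary groups at -0.4, -0.1 and +5.5 kb, siNC is above tumor at -0.9 kb, and siNfib stands apart from siNC at +4.5 and +35.9 kb.

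Over the whole window, 6 of 31 tested sites differed between hyperplasia and GNP, 1 higher and 5 lower in hyperplasia, among them +3.9 kb. This was 19.4% of the window's sites against 19% of 113501 sites tested genome-wide, so the share was near the background. Tumor against hyperplasia gave 11 of 31, all higher in tumor (35.5%, against 9.68% genome-wide called either way and 5.59% higher), with a median difference of 0.79 in the window and 0.00 over all sites. Against neighbouring sites of the chromosome, 6 were higher and 2 lower, with 9.68% called genome-wide. Tumor against GNP gave 8 higher and 1 lower (29.0%, against 18.5% genome-wide), of which 2 and 1 passed against neighbouring sites, where 18.2% of all sites did. The hyperplasia and GNP comparisons share libraries with both tumor comparisons, so the 3 counts are not independent.

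The promoter and +5.5 kb sites were occupied in every cell line library. The mean level of each VDR group was below that of tumor at both, by the values in the plot of 6 sites. At the promoter the siNfia mean was close to that of tumor (7.42 ± 0.40 against 7.497 ± 0.22). The siNfia and tumor libraries overlapped there, and that difference was not tested. The promoter site ranked 932, 1372 and 690 with siNC, 3265, 7009 and 3287 in untreated VDR and 466, 618 and 589 in tumor. Untreated VDR was below tumor there by -2.93 (SE 0.45, adjusted p = 7.73e-05), while siNC did not pass against tumor (-0.79, adjusted p = 0.228) and was above untreated VDR by 2.14 (adjusted p = 0.00429). The +5.5 kb site ranked 1435, 2494 and 1177 with siNC, below all 3 tumor libraries (difference -3.11, SE 0.90, adjusted p = 0.0155), a call lost without tumor replicate 1 (-2.16, 0.103) or siNC replicate 2 (-2.80, 0.0591). In untreated VDR it ranked 170, 3980 and 2184, which overlapped with tumor (difference -2.61, adjusted p = 0.0389; -2.25 and 0.0571 against neighbouring sites). That call was lost without tumor replicate 1 (-1.66, 0.235) or untreated VDR replicate 2 or 3 (-1.71, 0.193, and -2.14, 0.129).

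Other sites stood on either side of tumor in siNC cells. The -0.9 kb site in Gm35851 ranked 1080, 625 and 1084 with siNC, against 6232, 21579 and 19485 in tumor, a level higher by 3.94 (SE 0.76, adjusted p = 0.000768). In contrast, the +70.5 kb site was kept in all 9 primary libraries, at ranks of 40660 to 70082, and in 1 of 12 VDR libraries, at 93932. The +70.5 kb site was lower with siNC than in tumor, by -1.09 (adjusted p = 4.95e-05). At the adjacent +70.7 kb site a summit was kept in 1 siNC and 1 siNfib library, at whole-list ranks of 87778 and 97560. The count at +70.5 kb therefore depends in part on how summits were assigned to sites.

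In counts, siNC against tumor gave 16 sites higher and 7 lower of 56 (41.1%, against 25.7% of 159051 sites genome-wide), and 14 and 8 against neighbouring sites (32% genome-wide). Untreated VDR against tumor gave 1 higher and 8 lower (16.1%, against 26.4%), which became 8 and 7 against neighbouring sites (35.5% genome-wide). The siNC libraries against untreated VDR gave 15 higher and 0 lower (26.8%, against 11.9%), which became 6 and 11 (15.4% genome-wide). Beside the last 2, the ties and the low scores of the untreated VDR lists apply.

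With siNfib, the +3.5 and +4.5 kb sites were lower than with siNC and the +0.9, +1.4 and +35.9 kb sites higher, while the promoter and the +5.5 kb site did not pass. The +0.9 kb call has a limit from the way summits were assigned to sites, given below. The +1.4, +3.5 and +35.9 kb calls have a limit from the filter on occupied libraries, also given below. The +4.5 kb site (chr6:64733358-64733857) ranked 52402, 57348 and 82278 with siNfib, against 15583, 7568 and 12700 with siNC. Every siNfib library lay below every siNC library, and the level was 0.67 ± 0.34 against 3.13 ± 0.54 (difference -2.46, SE 0.49, adjusted p = 0.00696; called whichever library was left out). With siNfia the same site ranked 6752, 3911 and 14304, overlapping with siNC (difference 0.66, SE 0.49, adjusted p = 0.604).

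Far downstream, the +35.9 kb site (chr6:64764783-64765282) ranked 31704, 20346 and 37200 with siNfib, and was kept in 1 siNfia library, at 61569, and 1 siNC library, at 92860. It was not kept in untreated VDR or any primary library. The difference between siNfib and siNC was 1.76 (SE 0.35), and in the whole lists the other siNC libraries held a summit there at 102966 and 152307. In the gene body, the +1.4 kb site ranked 52402, 64194 and 49234 with siNfib and was kept in 1 siNfia library, at 93932, and in no siNC library (difference 0.86, SE 0.19). Both sites passed the filter of 3 occupied libraries only through siNfib, the group in which they are high, and +3.5 kb only through siNC, so their calls are given as a description. The +0.9 kb site was 1.77 higher (SE 0.51, adjusted p = 0.0486; 1.61 and 0.0669 against neighbouring sites), and the +3.5 kb site differed by -0.68 (SE 0.19, adjusted p = 0.0443). Neither passed when sites occupied in at least 1 library were tested (adjusted p = 0.185 and 0.069), and with all 21 libraries in the fit +0.9 and +1.4 kb did not (0.982 and 0.081). The +0.9 kb call was lost without siNC replicate 1 or 3 (adjusted p = 0.138 and 0.16) or siNfib replicate 1, 2 or 3 (0.195, 0.0709 and 0.164), and the +3.5 kb call without siNC replicate 1 (0.0714) or siNfib replicate 1, 2 or 3 (0.223, 0.129 and 0.184). Near +0.9 kb, close summits fell in different sites. The median siNC summit at 728 bp was joined to the +0.6 kb site and the median siNfib summit at 785 bp to the +0.9 kb site. In the whole lists the best summit near the +0.9 kb centre ranked 13564, 19678 and 23313 with siNC. With siNfib it ranked 9115, 14903 and 10911, so the groups overlapped.

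**Figure D5:**
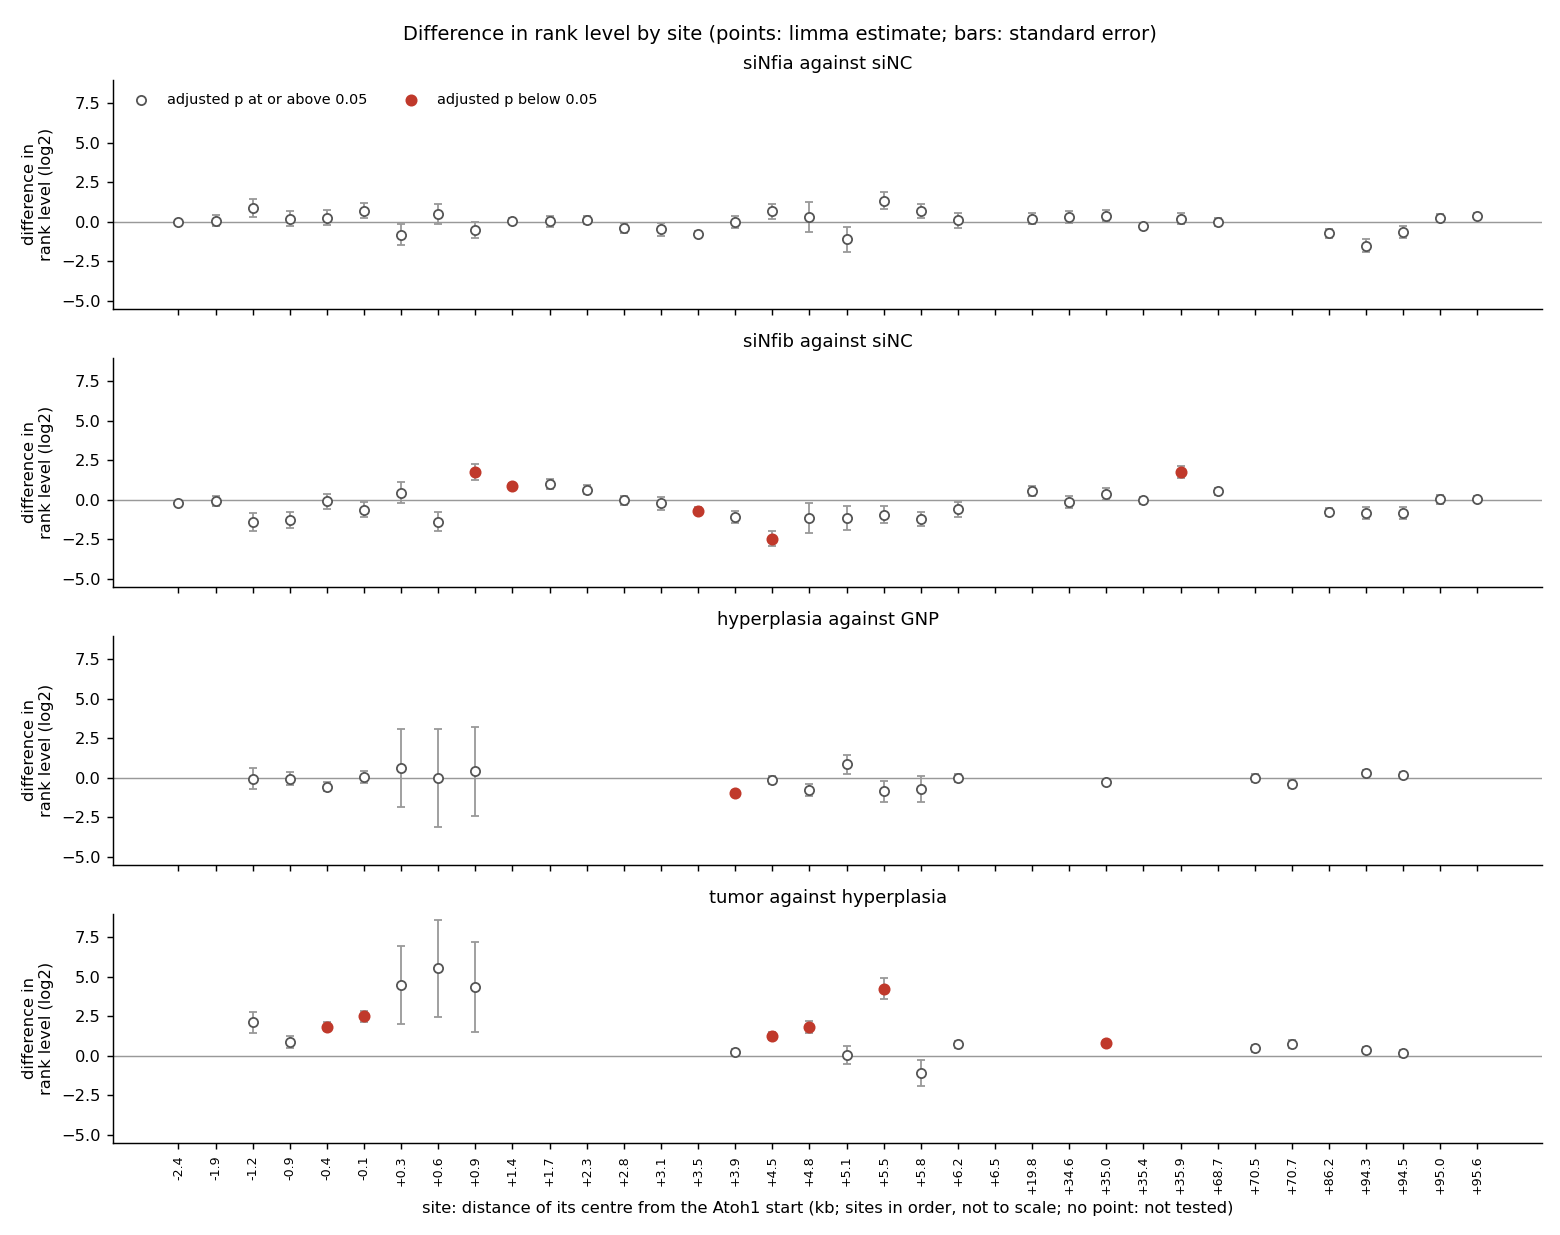
Difference in rank level (log2) by site for 4 comparisons over the same 36 sites, with siNfia and siNfib against siNC above and the stages below; points are limma estimates, bars are standard errors, and filled points have an adjusted p below 0.05. No siNfia site is filled, siNfib has 3 filled points above 0 and 2 below, and the tumor panel has 6 filled points, all above 0, in Gm35851, at the promoter and downstream.

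Of 49 sites tested, 5 passed with siNfib, 3 higher and 2 lower (10.2%, against 7.35% of 108091 sites genome-wide, a share near the background). Against neighbouring sites 2 were higher and 5 lower (7.52% genome-wide). The +1.4, +3.5 and +35.9 kb calls in the first count carry the filter limit given above. With siNfia 0 of 49 passed in limma, where 0.625% did genome-wide, and 8 had an unadjusted p under 0.05. Against neighbouring sites 1 passed, the +3.5 kb site (-0.90, adjusted p = 0.0167; 0.819% genome-wide), lower with siNfia, with the same limit from the filter. The promoter site ranked 1580, 2266 and 900 with siNfib, 630, 429 and 737 with siNfia and 932, 1372 and 690 with siNC, and siNfib and siNC overlapped. The +5.5 kb site ranked 2772, 3511 and 3016 with siNfib, below all siNC libraries, but the difference of -0.93 (SE 0.52) did not pass (adjusted p = 0.352). With siNfia it ranked 1145, 720 and 310, above all siNC libraries, and the difference of 1.35 (SE 0.52) did not pass either (adjusted p = 0.266). Both comparisons share the siNC libraries, and the difference between siNfib and siNfia was not tested.

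Genes that work with Atoh1 were read in the same fit, by kept summits within 100 kb of each. The 3 E protein partners (Tcf3, Tcf4 and Tcf12) and the 10 repressors and inhibitors, among them the Id genes, Hes1, Hes5 and Zic1, had 0 called members by limma in the 3 stage comparisons and in both knockdowns. The share of all windows called was 8.63% for hyperplasia against GNP, 3.62% for tumor against hyperplasia, 12.5% for tumor against GNP, 0.138% with siNfia and 2.39% with siNfib, so a count of 0 in lists this short says little. At an unadjusted p under 0.05, the partners had 0, 1, 0, 2 and 1 members and the repressors and inhibitors 3, 2, 3, 0 and 2, in that order of comparisons. Among 15 target and progenitor genes, 1 passed between tumor and hyperplasia: Ccnd2, a G1 cyclin, had 36 ± 2.65 kept summits in tumor and 22 ± 3.61 in hyperplasia (log2 difference 0.70, adjusted p = 0.00823; 0.10 and 0.62 against its neighbours). The share of all windows called in this comparison was 3.62%. Against GNP, tumor was higher at Ccnd2 (0.47, adjusted p = 0.016) and lower at Barhl1 (-0.43, adjusted p = 0.015), a homeobox gene regulated by ATOH1. Neither passed against neighbours (adjusted p = 0.652 and 0.501). Of the same 15 genes, 2 were higher and 5 lower with siNC than in tumor, where 44.1% of all windows were called.

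Of 5 tested genes of the next stage of granule neurons, 3 were lower in hyperplasia than in GNP, with 8.63% of all windows called either way, 4.43% lower, and 4.32% called against neighbours. Neurod1, a bHLH factor of differentiating granule neurons, had 19.7 ± 4.04 kept summits in hyperplasia and 28.7 ± 0.577 in GNP (log2 difference -0.54, adjusted p = 0.0152; -0.75 and 0.00797 against its neighbours). Neurod2, its relative, had 28 ± 2.65 in hyperplasia and 47.0 ± 1.73 in GNP (-0.73, adjusted p = 0.000868; -0.39 and 0.0172 against neighbours). Cntn2, which encodes the axonal protein TAG-1, had 28.3 ± 0.577 in hyperplasia and 39.3 ± 1.53 in GNP (-0.46, adjusted p = 0.00392; -0.30 and 0.055 against neighbours). The median of the list was -0.46, where that of all windows was -0.02, while the Atoh1 window count differed by 0.02. Between tumor and GNP 1 of the 5 passed (12.5% of all windows did): Neurod2, with 29.7 ± 2.52 kept summits in tumor and 47.0 ± 1.73 in GNP (-0.65, adjusted p = 0.000952; -0.35 and 0.0203 against neighbours). Between tumor and hyperplasia 0 of the 5 passed by limma (3.62% of all windows did), and 2 had an unadjusted p under 0.05.

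The 5 windows whose 7 group means followed that of Atoh1 most closely, by the root mean square difference of centred log2 counts among 17746 windows, were Rell1 (0.0798), Trim26 (0.0866), Trim15 (0.0938), Dclk2 (0.0988) and Ptn (0.100). Rell1 had 18.3 ± 0.577 kept summits with siNC, 8.33 ± 3.06 in untreated VDR and 12 ± 1.73 in tumor. Trim26 and Trim15 are adjacent and their windows share summits.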

How the data were processed

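ATAC libraries were aligned and peaks called by the authors with Bowtie2, Picard and MACS2 on mm10, per the submitters' processing notes, with no versions given. The deposited lists give each summit's position and a -log10 p or q value (which of these is not stated), and no read counts, so depth and its precision are unknown. Members and gene lists were chosen with earlier results of these data known. From each list the 100000 highest-scoring autosomal, X or Y summits were kept, with ties at the last rank broken at random (seed 1). Kept summits were counted within 100 kb of 21887 protein-coding genes (RefSeq), and windows with a mean of at least 3 were tested as log2(count + 1). Summits were merged into 500 bp sites by joining those within 250 bp of a stronger one, and rank levels of sites occupied in at least 3 libraries of a fit were tested. Each test was limma 3.58.1 (R 4.3.3) with a trended prior across all windows or sites and Benjamini-Hochberg adjustment, called at an adjusted p below 0.05. The 9 primary libraries, the 9 siRNA libraries and, for the other VDR comparisons, all 21 libraries were fitted separately. As a baseline, the median over the 10 nearest genes on each side was subtracted from window counts. For sites it was the mean of 200 tested sites on each side, beyond the nearest 100, hence called neighbouring sites. The named genes were Atoh1, its neighbours, 4 lists of related genes and the 5 windows most like it. Scripts ran on Python 3.11.15 with pandas 2.3.3 and numpy 2.4.6, and were tested on simulated data. Alternatives were the list length, window, pseudocount, filter, site width, baseline, fit, ties, replicate block and each library left out; those on ties and on the site baseline were chosen after seeing the data. No list was left out. Counts cover the whole window, while some of its sites are not reported here one by one.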

Additional observations from a re-analysis of the deposited data

Results flagged for a closer look

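Smo, which encodes the hedgehog signal transducer and lies on chromosome 6 outside the Atoh1 window, held a highest score of 7810.22 in tumor replicate 2. It was marked for a closer look because it is a signal outside the data compared above. In the other 20 libraries the highest score in the Smo body lay between 9.06 and 576.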

How the results depend on the processing

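For window counts (log2), hyperplasia against GNP turned negative with 50000 summits per list (-0.34), whole lists (-0.0318), a 50 kb window (-0.0684), neighbouring genes as baseline (-0.28) and tied summits left out (-0.0195). Tumor against hyperplasia passed with 50000 summits (0.74), a 200 kb window (0.39) and occupied sites counted (0.37), and turned to -0.0494 against neighbouring genes. Tumor against GNP did not pass with whole lists (0.27), a 50 kb window (0.33) or all 21 libraries in the fit (0.35), and turned to -0.33 against neighbouring genes. Turned signs were also found for siNfia with 150000 summits (0.16) and whole lists (0.0075), for siNfib with a 200 kb window (-0.11), occupied sites (-0.0121) and neighbouring genes (-0.16), and for untreated VDR against tumor with neighbouring genes (0.25), which did not pass with 50000 summits (-0.0490). The number of sites called moved for hyperplasia against GNP to 2 with 50000 summits and 3 with all 21 libraries, for tumor against GNP to 5 with all 21 libraries and 3 with neighbouring sites, and for siNfia to 3 and 1 in those settings. For siNfib it moved to 3 with 50000 summits, 150000 summits, sites in at least 1 library and the replicate block, and to 1 with 1000 bp sites. For untreated VDR against tumor it was 5 with 50000 summits and 15 with neighbouring sites, for siNC against tumor 14 with 50000, and for siNC against untreated VDR 7 with 50000 and 9 with 1000 bp sites. The cause of these changes was not tested. With each library left out, window differences ranged from -0.0458 to 0.0654 (hyperplasia against GNP), 0.26 to 0.39 (tumor against hyperplasia), 0.28 to 0.41 (tumor against GNP), -0.22 to 0.0503 (siNfia), 0.00 to 0.10 (siNfib), -0.52 to -0.40 (untreated VDR against tumor), 0.40 to 0.52 (siNC against tumor) and 0.88 to 0.97 (siNC against untreated VDR). The numbers of sites called ranged, in that order, from 3 to 6, 10 to 13, 4 to 10, 0 to 0, 3 to 5, 9 to 12, 18 to 22 and 11 to 14. Same-numbered libraries correlated between -0.05 and 0.04 over all fits. In the siRNA fit the 9 same-numbered pairs correlated between 0.0048 and 0.0372 (mean 0.0189). The 18 other pairs of that fit lay between -0.0291 and 0.00896 (mean -0.00939). In the primary fit the means were -0.00555 for same-numbered pairs and 0.00277 for the others. Whether the numbers pair the siRNA libraries was not tested. With the replicate block tumor against GNP was 0.35 (limma adjusted p = 0.041). Among called single sites 75 calls held with the block and 3 did not, among them +0.9 and +3.5 kb with siNfib (0.0506 and 0.0731). Of the single-site calls, 17 held and 14 did not with all 21 libraries in the fit, 54 and 24 against neighbouring sites, 64 and 14 with sites in at least 1 library, and 378 and 90 over all left-out libraries. Scores without counts limit all of these values, and sites near rank 100000 are cut off rather than absent.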
